A study of Danio rerio with 6 samples.

Results

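The early pigment cell lineage genes examined here are 7 of 10 listed zebrafish genes that a probe set of the array names as its single gene: mitfa, dct, kita, gch2, csf1ra, paics and gart. They were taken by platform gene symbol with no cut on their values, though the list was chosen with earlier results of these data known. They are measured by 8 of the 15502 probe sets analysed, with 2 probe sets for gch2. All probe sets together name 8793 genes. The other 3 listed genes, pnp4a, xdh and ltk, are named by no probe set as its single gene and are not analysed here. At 12 h after fertilisation, mitfa, dct, kita, gch2 and csf1ra read near or below the 25th percentile of the arrays in both groups, while paics and gart were bright. None of the 8 probe sets passed the test of Ovo1 morphants against controls. With same-numbered arrays paired, a fit that called 18.6% of all probe sets, gart was lower in morphants, a call that ended without pair 2 or pair 3 (limma, adjusted p = 0.120 and 0.0635). Without those pairs 1485 and 1592 of the 15502 probe sets were called, against 2891 with all pairs.

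The tested embryos were Ovo1 morphants, zebrafish of the AB strain that received a morpholino, which blocks a transcript by antisense pairing, directed at the zinc finger factor Ovo1; their label also names the reporter sox10(7.2):gfp. The other group was control embryos of the AB strain, described as wild type. The design text calls both groups carriers of the reporter, which is driven by sox10 regulatory sequence, and whether controls were injected is not stated. Each group holds 3 samples of whole-embryo total RNA taken at 12 h after fertilisation, the 6-somite stage, with 1 Affymetrix array per sample. The knockdown itself could not be read from these arrays, since the annotation used names no ovo gene. Whole-embryo RNA cannot tell fewer cells of a type from less RNA per cell.

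The pigment cells of zebrafish arise from the neural crest, a migratory population that forms at the edge of the neural plate. Black melanophores make melanin, yellow xanthophores make pteridines and store carotenoids, and silvery iridophores stack purine crystals. The transcription factor Mitfa is required for melanophores and is switched on by Sox10 in the crest. Pteridines are made from GTP, and purine crystals from the products of purine synthesis, so the enzymes of purine synthesis serve pigment cells as well as every dividing cell.

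Array medians of the deposited intensity ran from 132.7 to 154.1, and precision is limited by having 3 arrays a group. The deposited values are linear PLIER intensities, each summarising the probes of a probe set on 1 array. The labels do not state whether replicates are different clutches of embryos; the p-values then reflect only how much these samples vary, which may be technical. Of 21 measured markers of whole-embryo tissues (muscle, brain, notochord, skin, blood, endoderm and crest), 19 lay above the 25th percentile of every array. The exceptions were the endoderm genes sox17, above it on 4 of the 6 arrays, and sox32, on 0. Differences are on the scale log2(intensity + 16) after quantile normalization, morphant minus control, and a change of a dim probe set is understated on that scale.

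The first question was whether these genes could be read at this stage at all. No background control value is given for each probe set, so the floor was set by convention at the 25th percentile of each array, which lay between 34.9 and 37.4. A list of 43 genes of tissues that differentiate later, such as photoreceptor, lens and digestive enzyme genes, served as a second yardstick. The median of its 51 probe sets ran from 28.0 to 33.7 over the arrays and their 90th percentile from 95.03 to 116.4, although some of its genes were bright at this stage, such as the lipid-binding protein gene fabp2. Probe sets differ in brightness for reasons of design, so levels are set against the floor and not against each other. The floor and the later-tissue list are themselves drawn from other probe sets, so they share this limit.

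Of the 8 probe sets, 3 lay above the 25th percentile on every morphant array, and the same 3 on every control array: paics, gart and the brighter gch2 probe set. Above the median of the later-tissue genes lay the same 3 on every morphant array, and these and dct, 4 of the 8, on every control array. Only paics and gart lay above the 90th percentile of the later-tissue genes. They also lay above the median of every array. The intensities of mitfa and csf1ra lay below the 25th percentile on all 6 arrays, and dct, kita and the dimmer gch2 probe set exceeded it on 2 of the 6 each. At the 10th percentile instead, 7 of the 8 lay above the floor on every morphant array and 8 of 8 on every control array. A reading below the floor gives no measure that the transcript is absent.

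**Figure D1:**
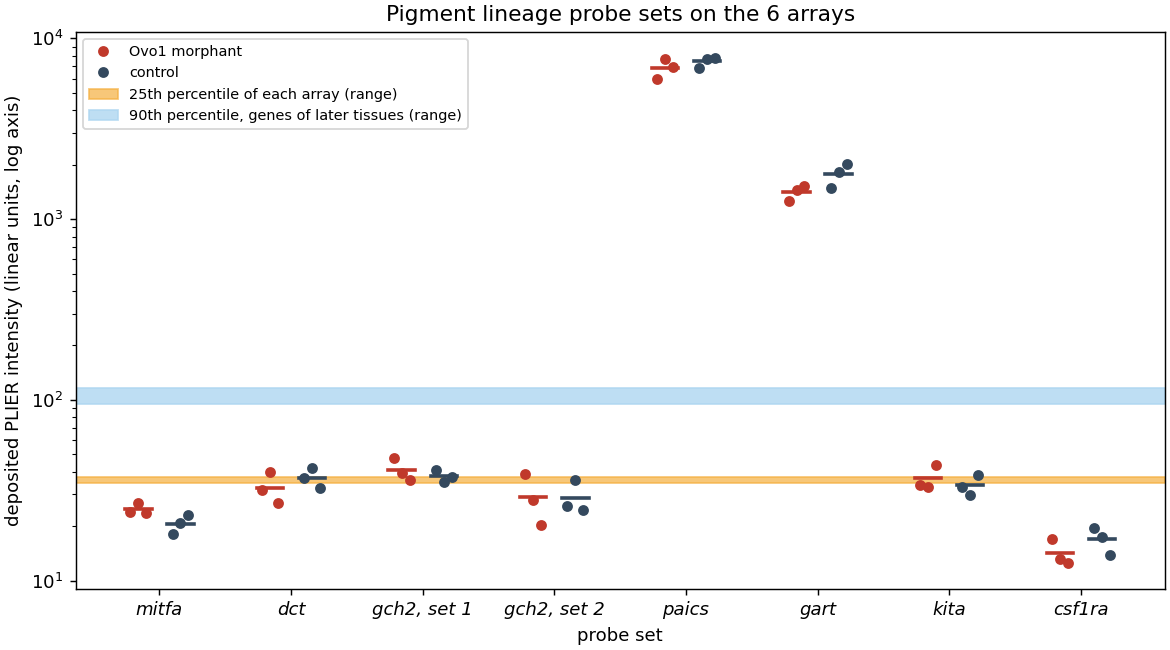
Deposited PLIER intensity (log axis) of the 8 probe sets on each array, Ovo1 morphants left and controls right, with group means as bars (n = 3 per group); the orange band is the range of the arrays' 25th percentiles and the blue band that of the 90th percentile of later-tissue genes. The probe sets of paics and gart stand far above both bands, and the other 6 lie near or under the orange one.

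In the test across all probe sets 5.72% were called (limma, Benjamini-Hochberg adjusted p under 0.05), of which 402 (2.59% of all) stood higher and 484 (3.12%) lower in the morphant group. Of the 8 pigment probe sets 0 were called, with adjusted p between 0.163 and 0.979 in limma, and 1 had an unadjusted p under 0.05 (21.3% of all probe sets). Their differences were split evenly around 0, with 4 above and 4 below, and their median was −0.04, beside −0.0014 over all probe sets. Among probe sets that lay at or below the floor on all 6 arrays, as mitfa and csf1ra did, 18 of 3161 (0.569%) were called. Of the 10878 that lay above it on all 6, 7.15% were called. Of the 1463 above it on only some arrays, as dct, kita and the dimmer gch2 probe set were, 90 (6.15%) were called.

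The melanophore gene mitfa read 23.93, 26.71 and 23.78 in morphants 1 to 3, against 18.11, 20.82 and 23.04 in controls 1 to 3. All 3 morphants lay above all 3 controls, by a margin of less than 1 intensity unit between the lowest morphant and the highest control. The means were 24.8 ± 1.7 in morphants and 20.7 ± 2.5 in controls (SD, n = 3 each). The difference of +0.17 ± 0.11 did not pass the test (limma, adjusted p = 0.415), and its 95% interval ran from −0.07 to +0.41, a fold of 0.954 to 1.33. With a pseudocount of 1 the difference was +0.28 ± 0.18 (adjusted p = 0.435 in limma), with a wider 95% interval of −0.13 to +0.70. Groups that do not overlap were found in 26% of all probe sets, and mitfa was the 1 of the 8 in which they did not.

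The gene dct encodes dopachrome tautomerase, an enzyme of melanin synthesis and an early marker of melanoblasts. It read 31.69, 39.65 and 26.73 in morphants, against 36.96, 41.89 and 32.60 in controls. The groups overlapped, with morphant 2 above 2 of the controls, although each morphant read below the control of the same number. The difference was −0.13 ± 0.14 (limma, adjusted p = 0.688).

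The receptor tyrosine kinase gene kita, whose product melanophores need to migrate and survive, read 33.66, 32.86 and 43.70 in morphants, against 33.04, 29.63 and 38.42 in controls. Array 3 was the brightest of each group, and the groups overlapped. Its difference of +0.10 ± 0.12 did not pass (limma, adjusted p = 0.747), and with each array left out in turn it ran from +0.00099 to +0.15, the lowest without Ovo1 morphant replicate 3.

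The gene gch2 encodes GTP cyclohydrolase, the entry enzyme of pteridine synthesis, and marks xanthophore precursors. Its brighter probe set read 47.90, 39.23 and 35.79 in morphants, against 41.14, 34.90 and 37.47 in controls. These values stood between 1.001 and 1.30 times the floor of their own array, so its place above the floor was narrow. The dimmer probe set read 38.93, 28.02 and 20.30 in morphants, against 25.82, 36.19 and 24.42 in controls. The groups overlapped in both. The differences were +0.10 ± 0.12 and +0.01 ± 0.17 (limma, adjusted p = 0.718 and 0.979). For the dimmer one the same-numbered pairs disagreed in direction, with pair 1 at +0.42, pair 2 at −0.26 and pair 3 at −0.12. Its sign turned with the values as deposited (−0.0024), without Ovo1 morphant replicate 1 (−0.12), without control replicate 1 (−0.05) and without control replicate 3 (−0.06).

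The gene csf1ra encodes the colony-stimulating factor receptor that xanthophores and macrophages both use. It read 17.05, 13.17 and 12.44 in morphants, against 19.63, 17.33 and 13.90 in controls, between the 9.4 and 14.2 percentiles of the arrays. Each morphant read below its same-numbered control, but the groups overlapped and the difference of −0.11 ± 0.10 did not pass (limma, adjusted p = 0.594).

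The bifunctional enzyme gene paics, which acts in the middle of purine synthesis, was among the brightest probe sets of every array, at a percentile of 98.8 or more. It read 5933, 7667 and 6973 in morphants, against 6828, 7706 and 7837 in controls. Each morphant was below its same-numbered control, the groups overlapped, and the difference of −0.09 ± 0.07 passed neither without the block nor with it (limma, adjusted p = 0.578 and 0.175). Its 95% interval was a fold of 0.836 to 1.06, the narrowest of the 8.

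The largest difference of the 8 was that of gart, a trifunctional enzyme of early purine synthesis. It read 1254, 1450 and 1532 in morphants, against 1491, 1823 and 2018 in controls. Morphant 3 read above control 1, so the groups overlapped, yet each morphant lay below the control of the same number, by −0.19, −0.38 and −0.34 in pairs 1 to 3. The means were 1412 ± 143 in morphants and 1777 ± 266 in controls (SD, n = 3 each), and the difference was −0.30 ± 0.11, a fold of 0.809 with a 95% interval of 0.678 to 0.966.

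Without the replicate block gart did not pass (limma, adjusted p = 0.163). With the replicate number as a block it was lower in morphants (−0.30 ± 0.07, adjusted p = 0.0150 in limma), in a fit that called 18.6% of all probe sets, 8.82% as higher and 9.83% as lower. The call with the block held without the pair numbered 1 (adjusted p = 0.000755 in limma) and ended without pair 2 (0.120) or pair 3 (0.0635), a removal chosen after seeing the data. Without pairs 1, 2 and 3 in turn, the blocked fit called 4446, 1485 and 1592 of the 15502 probe sets. None of the other 7 probe sets passed in the blocked fit (limma, adjusted p of at least 0.175).

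**Figure D2:**
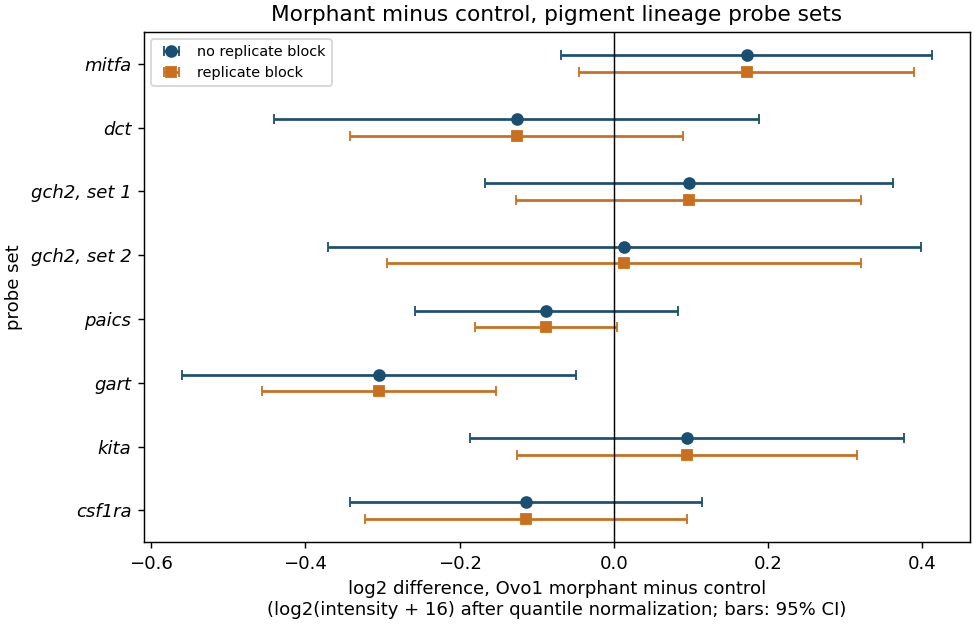
Log2 difference, Ovo1 morphant minus control, of the 8 probe sets (points) with 95% confidence intervals (bars), without the replicate block (circles) and with it (squares), n = 3 per group. The interval of gart lies below 0 in both fits, and those of the other 7 include 0 in both.

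Across the 6 arrays the 8 probe sets had no common course. The 2 gch2 probe sets correlated at r = 0.51, mitfa and dct at −0.13, mitfa and kita at 0.44, mitfa and csf1ra at −0.85, and paics and gart at 0.76 (Pearson, normalized values, 6 arrays that include both groups and share any array effects). Among 8265 single-symbol probe sets above the floor on all arrays, those most like mitfa over the 6 arrays were eif3i (r = 0.991), otulinb (0.985), rpl30 (0.983), abhd10a (0.981) and cox11 (0.977). For the other probe sets the closest were tent5c for dct (0.997), cab39l1 and arih2 for the brighter and dimmer gch2 probe sets (0.995 and 0.989), tpd52l2b for paics (0.993), cmpk for gart (0.992), tox4b for kita (0.990) and si:dkey-247k7.2 for csf1ra (0.991). With 6 arrays and so many candidates, such values are reached by choice of the highest, and they describe these arrays only.

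Beyond the listed genes, 8 of 32 genes of a melanophore and melanin list were measured. Of these, 0 were called in limma, beside 5.72% of all probe sets, and 3 had an unadjusted p under 0.05, beside 21.3%. With the replicate block 2 were lower, beside 9.83%: tfe3a and sox10, which is also counted in the regulator and whole-embryo lists below. The blocked fit without replicate 2 had 1 lower, and called 1485 of the 15502 probe sets in all. The median of the 8 was −0.23, and 5 of the 8 lay above the floor on every array. The transcription factor gene tfe3a, of the same family as mitfa, read 52.24, 77.90 and 77.42 in morphants, against 123.9, 86.65 and 113.3 in controls. Its groups were apart, as in 26% of all probe sets. It differed by −0.54 ± 0.16 (limma, adjusted p = 0.0994, and 0.0397 with the block). The mitfa paralogue mitfb read 106.9, 87.36 and 96.40 in morphants, against 87.90, 69.69 and 63.51 in controls (+0.34 ± 0.15, adjusted p = 0.230 in limma). The groups of mitfb overlapped as deposited and did not after normalization. The small GTPase gene rab32a, which serves melanosome formation, differed by −0.32 ± 0.13 (limma, adjusted p = 0.199). The pigment enzyme gene tyr, the melanosome protein gene pmelb and the receptor gene mc1r, named here after their values were seen, lay below the floor on all 6 arrays, at 8.87 to 18.81, 1.58 to 9.16 and 6.62 to 8.32 in morphants, against 17.20 to 20.51, 7.49 to 10.53 and 5.83 to 6.66 in controls.

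In the pteridine and xanthophore list 13 of 28 genes were measured, with a median of +0.0061. Without the block and with it 0 were called in limma, beside 5.72% and 18.6% of all probe sets. An unadjusted p under 0.05 was found in 0, beside 21.3%. The blocked fit without replicate 1 had 1 higher and 1 lower, and called 4446 of the 15502 probe sets in all. The genes with the smallest p, none of which passed, were qdpra, a dihydropteridine reductase (−0.24 ± 0.12), pcbd1, a pterin dehydratase (−0.28 ± 0.13), and gchfr, a feedback regulator of GTP cyclohydrolase (−0.26 ± 0.14), with adjusted p of 0.281, 0.286 and 0.313 in limma. The ubiquitin ligase gene mycbp2 stood at +0.16 ± 0.15 (adjusted p = 0.609). Of qdpra the morphants read 53.57, 45.84 and 45.04 and the controls 58.70, 62.20 and 60.80, with no overlap, as in 26% of all probe sets. A second, dimmer qdpra probe set, below the floor on all arrays, stood at −0.0027 ± 0.12 (limma, adjusted p = 0.993). The paired box gene pax7a, a xanthophore regulator named after its values were seen, read 35.00 to 36.81 in morphants and 33.52 to 35.80 in controls on its brightest probe set, at the floor.

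In the iridophore list 6 of 27 genes were measured, with a median of −0.0091. Of these, 1 was lower and 0 higher, beside 3.12% and 2.59% of all probe sets, and 1 had an unadjusted p under 0.05 in limma, beside 21.3%. The lower gene was impdh1b, the dehydrogenase that commits inosine monophosphate to guanine nucleotides. It read 1185, 1342 and 1150 in morphants, against 1618, 1659 and 1660 in controls. The 3 morphants lay below every control, and impdh1b fell by 0.42 ± 0.08 on the log2 scale (limma, adjusted p = 0.0170). Leaving out any 1 of 5 of the 6 arrays ended that call (adjusted p up to 0.0955), and a second, dimmer impdh1b probe set stood at −0.32 ± 0.16 (adjusted p = 0.301). The paralogue impdh2, measured in the purine list below, stood at +0.33 ± 0.12 (adjusted p = 0.166 in limma). The endothelin receptor gene ednrba, which iridophores need, read 77.18, 71.36 and 56.11 in morphants and 63.78, 60.12 and 62.13 in controls (+0.12 ± 0.13, adjusted p = 0.695 in limma). The others with the smallest p, the water channel gene aqp3a (−0.17 ± 0.12, adjusted p = 0.496) and the purine nucleoside phosphorylase gene pnp6 (+0.08 ± 0.08, 0.648), lay below the floor on all arrays.

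The list of purine synthesis and salvage enzymes, which leaves out paics and gart of the same pathway, had 25 of 45 measured. Above the floor on every array lay 21 of them. Of these 25, 3 were lower and 0 higher in morphants, beside 3.12% lower and 2.59% higher over all probe sets. The blocked fit had 4 lower and 2 higher, beside 9.83% and 8.82% over all probe sets. The 2 higher with the block became 0 without replicate 2 or replicate 3, where 1485 and 1592 of the 15502 probe sets were called. The list median was −0.0042, and 8 of the 25 had an unadjusted p under 0.05 in limma, beside 21.3% of all probe sets. The called genes were shmt2, impdh1b and adka, the adenosine kinase gene. The mitochondrial enzyme gene shmt2 feeds one-carbon units into purine synthesis. It read 264.9, 294.6 and 360.8 in morphants, against 543.5, 580.6 and 699.2 in controls, and fell by 0.95 ± 0.13 on the log2 scale (limma, adjusted p = 0.00494), a fold of 0.519. It stayed called without each array in turn (adjusted p up to 0.0362), and a second, dimmer probe set stood at −0.52 ± 0.17 (adjusted p = 0.130).

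The kinase gene adka read 861.2, 874.1 and 914.8 in morphants, against 1099, 1174 and 1331 in controls, and fell by 0.41 ± 0.09 (limma, adjusted p = 0.0404), and omitting any 1 of 5 arrays ended the call (adjusted p up to 0.196). Its paralogue adkb, named after its values were seen, stood at +0.26 ± 0.13 and did not pass (limma, adjusted p = 0.298). The folate enzyme gene mthfd2, which works beside shmt2 in mitochondria, had a difference of the sign opposite to that of shmt2. It read 419.8, 584.6 and 547.7 in morphants and 380.6, 382.3 and 402.3 in controls. Its difference of +0.40 ± 0.12 did not pass (limma, adjusted p = 0.0863) and did with the block (0.0187). The others of the purine list called only with the block, named after their values were seen, were impdh2 and guk1a. The impdh1b paralogue impdh2 was higher (+0.33 ± 0.12, adjusted p = 0.166, and 0.0174 with the block in limma). The gene guk1a was lower (−0.48 ± 0.15, adjusted p = 0.105, and 0.0317 with the block in limma). The count of lower enzymes was 1 without Ovo1 morphant replicates 2 or 3 or any of the controls, each left out in turn, and 5 without Ovo1 morphant replicate 1. Of the 15502 probe sets the former fits called 269 to 492 and the latter 1713, against 886 with all arrays.

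The enzymes on either side of gart and paics in the main pathway, chosen by their place in it after their values were seen, did not pass the test. The first enzyme, ppat, averaged 1759 in morphants and 1806 in controls (−0.03 ± 0.09, adjusted p = 0.903 in limma). The lyase gene adsl, which acts after paics, averaged 1729 in morphants and 1585 in controls (+0.14 ± 0.09, adjusted p = 0.451), and atic, which closes the ring, averaged 2085 in morphants and 2122 in controls (−0.01 ± 0.12, adjusted p = 0.978). Thus gart stood at −0.30 between ppat and adsl, and the difference between these enzymes' changes was not tested.

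**Figure D3:**
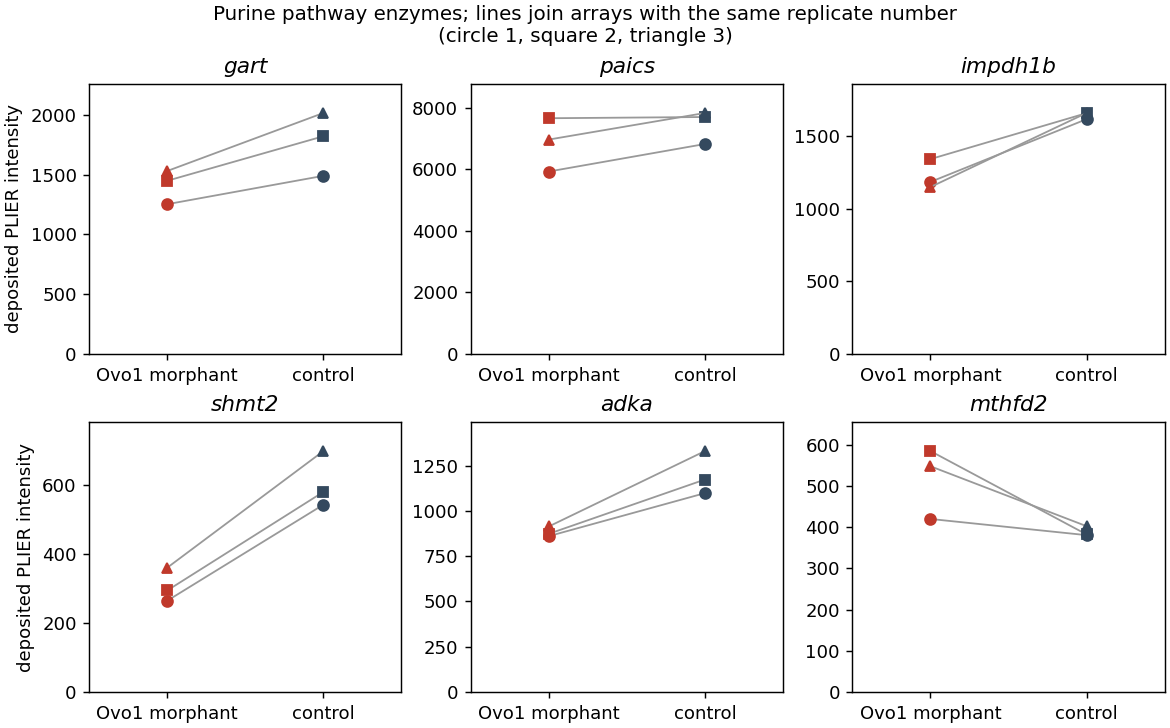
Deposited PLIER intensity of 6 purine pathway enzymes on each array, Ovo1 morphants left and controls right, with lines joining arrays of the same replicate number. In gart every line has its morphant end lower, although morphant 3 (1532) lies above control 1 (1491), and in shmt2 the morphants (265 to 361) lie well below the controls (543 to 699).

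A list of factors known to act on mitfa, together with crest markers and Wnt genes, had 17 of 23 genes measured. Of them 1 was lower and 0 higher, beside 3.12% and 2.59% of all probe sets, with a median of −0.03. An unadjusted p under 0.05 was found in 5 of the 17 in limma, beside 21.3%. With the block 5 were lower, beside 9.83% of all probe sets, and this count was 2 without replicate 2 and 4 without replicate 1 or 3. Over all 15502 probe sets the blocked fits without replicates 1, 2 and 3 called 4446, 1485 and 1592. The lower one, crestin, marks crest cells and is not known as a regulator of mitfa. It read 289.9, 220.0 and 311.8 in morphants, against 749.4, 426.9 and 908.0 in controls (limma, adjusted p = 0.0242), a call lost when any 1 of 3 arrays was omitted (adjusted p up to 0.105). The gene of the direct activator of mitfa, sox10, lay above the floor on every array, unlike mitfa, and read 395.2, 530.3 and 645.4 in morphants and 623.3, 621.8 and 737.8 in controls. Its groups overlapped, and it passed only with the block (−0.33 ± 0.15, adjusted p = 0.259, and 0.0479 with the block in limma).

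The crest factor genes foxd3 (1067 ± 59 in morphants and 1335 ± 114 in controls), tfap2a (1952 ± 40 in morphants and 2345 ± 75 in controls) and sox9b (1261 ± 226 in morphants and 1545 ± 109 in controls, SD, n = 3 each) also passed only with the block. Their adjusted p in limma was 0.111, 0.108 and 0.166 without the block, and 0.0264, 0.0265 and 0.0299 with it. A second, dimmer sox9b probe set passed in neither fit (−0.29 ± 0.16, adjusted p = 0.382, and 0.0726 with the block in limma). In mitfa itself the blocked adjusted p was 0.258, with the opposite sign. The paired box genes pax3a and pax7a, also regulators in this list, read at or below the floor, pax3a at 11.18 to 32.90 in morphants and 13.76 to 36.82 in controls.

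Other tissues also use some of these genes, so their markers are given beside them. Among 20 measured early blood and macrophage genes, where csf1ra and kita are also active, 2 were higher and 1 lower, with a median of −0.06. The shares of all probe sets were 2.59% and 3.12%. The counts were the same with the block, beside 8.82% and 9.83%. The blocked fit without replicate 1 had 3 lower, and called 4446 of the 15502 probe sets in all. Without the block 3 of the 20 had an unadjusted p under 0.05 in limma, beside 21.3% of all probe sets. Above the floor on every array lay 12 of the 20. At or below it on all 6 arrays lay 6, named after their values were seen: spi1b, alas2, ikzf1, marco, runx1 and ptprc. The summed deposited intensity of the list, to which bright probe sets add most, was 7408 to 8622 in morphants and 8195 to 8918 in controls. This sum was not tested. It holds lcp1, at a mean of 706 in morphants and 1687 in controls. It also holds the genes called higher, cebpb (925 and 647) and klf17 (865 and 617). The lower gene, lcp1, a leukocyte actin-bundling protein, read 798.8, 855.0 and 463.0 in morphants, against 1644, 2043 and 1375 in controls (−1.25 ± 0.23, adjusted p = 0.0187 in limma). The higher ones were klf17 (+0.50 ± 0.10, adjusted p = 0.0253) and cebpb (+0.53 ± 0.11, adjusted p = 0.0309), and drl stood at −0.48 ± 0.26 (0.345). With each of the 6 arrays left out in turn, the call of lcp1 was lost 2 times, that of klf17 4 times and that of cebpb 5 times.

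Among 18 eye field and retinal pigment epithelium genes, whose tissue later makes melanin with mitfa and dct active, 2 were lower and 0 higher. The shares of all probe sets were 3.12% and 2.59%, and the list median was −0.14. An unadjusted p under 0.05 was found in 6 of the 18 in limma, beside 21.3%. With the block 6 were lower and 1 higher, beside 9.83% and 8.82% of all probe sets. The lower ones numbered 8, 4 and 3 with the block and without replicates 1, 2 and 3. Of all 15502 probe sets these fits called 4446, 1485 and 1592. The summed deposited intensity of the list, to which bright probe sets add most, was 4518 to 5214 in morphants and 5531 to 5835 in controls. This sum was not tested, and not all of its genes were lower, with six3a at +0.31 and six3b at +0.29. The lower genes were pax6a (−0.57 ± 0.10, adjusted p = 0.0141) and rx2 (−0.83 ± 0.16, adjusted p = 0.0188 in limma), each losing its call without 3 of the arrays, while pax6b (−0.74 ± 0.19, 0.0605) and six3b (+0.29 ± 0.09, 0.0870) passed only with the block (adjusted p = 0.00678 and 0.0261 in limma). The others lower only with the block, named after their values were seen, were mab21l2, otx2b and rx3 (adjusted p = 0.0126, 0.0137 and 0.0415 in limma). A second, dimmer rx2 probe set stood at −0.63 ± 0.20 (adjusted p = 0.105, and 0.0112 with the block in limma). The part of either tissue in the readings of csf1ra, kita, mitfa or dct was not tested.

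Of the 21 whole-embryo markers, 2 were lower and 0 higher, beside 3.12% and 2.59% of all probe sets, with a median of −0.04. An unadjusted p under 0.05 was found in 6 of the 21 in limma, beside 21.3%. With the block 5 were lower, beside 9.83%, and these numbered 6, 3 and 3 without replicates 1, 2 and 3. The same fits called 4446, 1485 and 1592 of the 15502 probe sets. The lower gene without the block, beside crestin, was sox2, a factor of neural progenitors. It read 866.1, 1185 and 1045 in morphants, against 1321, 1339 and 1438 in controls (−0.41 ± 0.10, adjusted p = 0.0472 in limma), and leaving out any 1 of 5 arrays ended that call (adjusted p up to 0.197). Other, dimmer sox2 probe sets stood at −0.36 ± 0.11 and −0.03 ± 0.18 (adjusted p = 0.105 and 0.957 in limma). The muscle factor gene myf5 passed only with the block (−0.32 ± 0.10, adjusted p = 0.104, and 0.0251 with the block in limma). Among the 43 later-tissue genes, each by its brightest probe set, 0 were called in limma, beside 5.72% of all probe sets. An unadjusted p under 0.05 was found in 1, beside 21.3%. With the block 1 was lower, beside 9.83%, the glial filament gene gfap (−1.04 ± 0.38, adjusted p = 0.158, and 0.00412 with the block). Next in order of p were cel.1 (−0.18 ± 0.09, adjusted p = 0.290), mbpa (−0.18 ± 0.11, 0.393) and opn1sw2 (−0.17 ± 0.13, 0.531). A second, dimmer probe set of cga was higher (+0.45 ± 0.11, adjusted p = 0.0475, and 0.0233 with the block in limma). It lay below the floor, at 13.75 to 22.37 in morphants and 7.19 to 9.15 in controls.

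**Figure D4:**
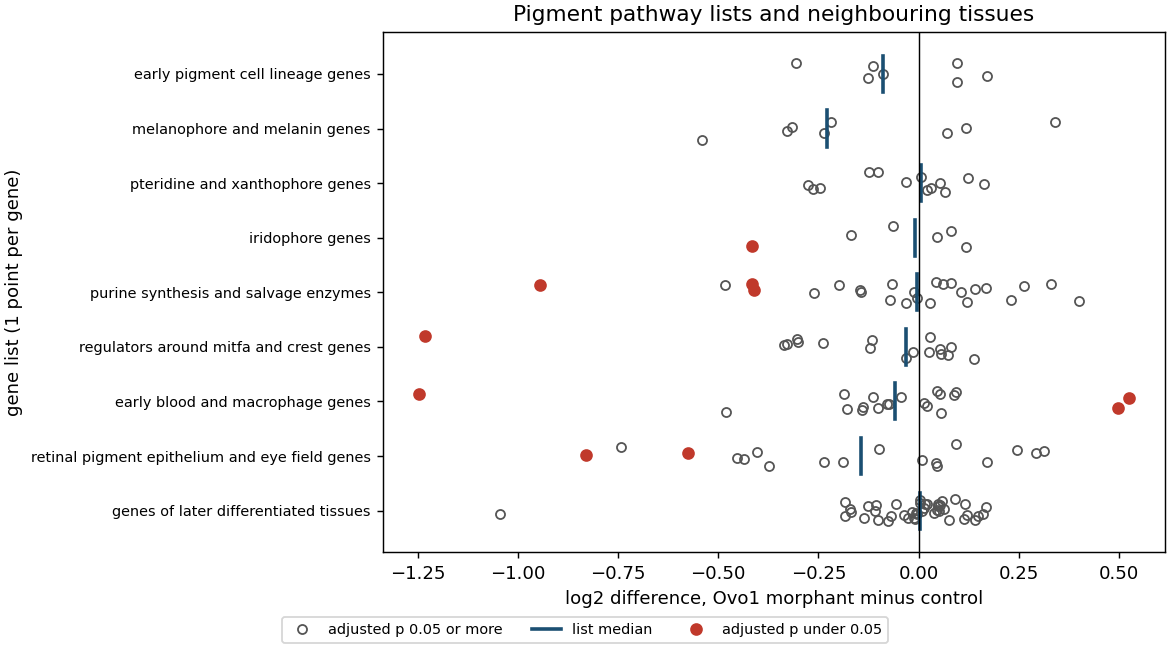
Log2 difference, Ovo1 morphant minus control, of every measured gene of 9 lists (1 point per gene), with called genes filled and list medians as bars. None of the early pigment cell lineage genes is called, and their differences lie between −0.30 and +0.17, whereas shmt2, crestin and lcp1 stand at −0.95, −1.23 and −1.25 in their lists.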

How the data were processed

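Whole-embryo total RNA (5 µg for labelling, embryos kept at 28.5 °C, per the labels' protocols) was hybridised to 6 Affymetrix arrays. The deposited values are PLIER intensities from Expression Console 1.1 of Affymetrix, as named in the submitters' processing notes. The PLIER settings for background, normalization and offset are not stated there. Of 15617 probe sets, 115 array controls were left out. Quantile normalization between arrays was applied to log2(intensity + 16). The test of morphants against controls used limma 3.58.1 under R 4.3.3 (eBayes, trend by intensity) and Benjamini-Hochberg adjustment over 15502 probe sets at 0.05. Names came from the platform annotation, brought up to date with RefSeq by gene identifier: 10795 probe sets had 1 symbol, 135 several and 4572 none. The brightest probe set stood for a gene in the lists. Text names every pigment probe set, up to 4 genes of smallest p and each called gene per list, and the 5 most like mitfa. The members, lists and rules were chosen with earlier results of these data known, so counts by list are descriptions.

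The deviations of same-numbered arrays from the mean of their own group correlated at r = 0.58, 0.46 and 0.54 over the probe sets. These lay above the limit of 0.1, so the numbers of the titles were taken to pair the samples. The same values chose the pairing and were then tested with it, and the rule made no use of different-numbered arrays. What a replicate number marks is not stated, so every call made only with the block rests on this pairing. Blocked values are given where they change the call of a pigment probe set or of the brightest probe set of a list gene. They are not given for every second probe set of a list gene. The fit was tested on simulated data of 15502 probe sets, 3 against 3, with noise drawn independently for each array. At log2 changes of 0.5, 1 and 2 the share recovered was 37.0%, 94.2% and 100%, and 24.7%, 98.6% and 100% with the block. Without the block, 10 of 160 calls were false. The simulated arrays held no correlation between same-numbered samples, so these rates need not hold for the real ones. The fits were repeated without normalization, with median centring, with a pseudocount of 1 or 64, without dim probe sets, with the trend removed or robust eBayes, with the replicate number as a block, with other floors, and without each array. Figures were drawn with matplotlib 3.10.9.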

Additional observations from a re-analysis of the deposited data

How the results depend on the processing

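Of the 8 probe sets, 0 were called under each alternative that the methods name except the replicate block, which called 1, gart (−0.30, adjusted p = 0.0150, limma); the replicate block changed no other call among the 8. Fits added after seeing the data also called gart: the block with values as deposited (−0.32), with median centring (−0.32) and without replicate 1 (−0.36), 1 probe set each time. The sign of the dimmer gch2 probe set turned with the values as deposited (−0.0024, with and without the block), with the block without replicate 1 (−0.19), and in fits that left out 1 array, which ran from −0.12 to 0.15; the cause was not tested. Over all probe sets 886 were called, 2891 with the block, 2442 and 3082 with the block on deposited or median-centred values, 4446, 1485 and 1592 with the block without replicates 1, 2 and 3, and 269 to 1713 without 1 array. The lower purine enzymes numbered 3, 1 with median centring, 5 with the block and median centring or without replicate 1, and 1 to 5 without 1 array. At the 10th percentile, 7 probe sets lay above the floor in morphants and 8 in controls, against 3 in each group at the 25th. The filter on dim probe sets kept gart, paics and the brighter gch2 probe set, and gave no value for the other 5. Dim signal limits mitfa, dct, kita, gch2 and csf1ra: near the floor their differences depend on the pseudocount.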
